A study of Rattus norvegicus with 24 samples.

Results

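The postsynaptic density is the protein-rich layer under the receptors of an excitatory synapse, where stacked scaffold proteins hold glutamate receptors near the enzymes that act on them. 10 of its genes were followed in the rat nucleus accumbens (NAc), the ventral part of the striatum that takes part in reward and drug seeking. They were picked by name, with earlier results of these data known, and each had exactly 1 transcript cluster, the array's unit for 1 gene locus, of the 68842 clusters on the array. Dlg1 (SAP97), Dlg2 (PSD-93), Dlg3 (SAP102) and Dlg4 (PSD-95) encode membrane-associated scaffolds that bind receptor tails through PDZ domains. Dlgap1 encodes an adaptor that links those scaffolds to the Shank proteins. Shank1, Shank2 and Shank3 encode the deeper scaffold layer, which reaches toward the actin skeleton. Camk2a and Camk2b encode the alpha and beta subunits of the calcium/calmodulin-dependent kinase CaMKII, which is activated by calcium entry at the synapse and is known for its part in synaptic strengthening.

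RNA of the NAc from 24 male Sprague Dawley rats was measured on 24 Rat Transcriptome Arrays, 1 rat per array. The control group (CT, n = 6) had saline. Shock resistant rats (SR, n = 6) self-administered methamphetamine and kept taking it when lever presses brought footshocks, and shock sensitive rats (SS, n = 6) took less once punished. SR and SS rats had the same training and were sorted afterwards by their response to punishment. Rats yoked to the SR rats (YSR, n = 3) and to the SS rats (YSS, n = 3) received saline and non-contingent footshocks whenever their partner was shocked. All tissue was taken about a month after drug and shocks had ended, once the rats had gone through their final drug-seeking test. The titles of the CT, SR and SS samples carry a mark, (2), that those of the yoked samples lack. Its meaning was not given in the sources used here, and if it stands for a processing batch, batch and group cannot be told apart in any comparison of yoked with other rats. The samples were chosen by the study for RNA quality, and no array stood apart as a copy of another.

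The values are log2 signals, so that a difference of 1 is a doubling, and levels of different genes were not set against each other because every gene has its own probes. Tests were run on the 9044 clusters whose CT mean exceeded that of the bioB control, 9.45 on the log2 scale. The defining markers of medium spiny neurons, the main neurons of the striatum, were present. All 9 passed the filter, and 7 of the 9 were above the 95th percentile of the negative control probes on all 24 arrays. Of 9 markers of cortical glutamatergic neurons, 6 were above that percentile on no array, Lamp5 and Rorb were above it on all 24, and Slc17a7 was above it on 7. The 95th percentile itself lay between 9.63 and 10.32. In whole tissue, fewer cells of a type and less RNA per cell cannot be told apart.

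8 of the 10 genes passed the filter, and all 8 were above the 95th percentile of the negative controls on 24 of 24 arrays. Shank2 was above it on 0 arrays and Shank3 on 1, so for these no fold is given and their values are read as signals near background. Each cluster carried between 208 and 481 probes. In the coordinates of the array's annotation, for which the sources used here name no genome build, Dlg1 lay on chromosome 11 (72163098 to 72378983, minus strand), Dlg2 on chromosome 1 (155147804 to 157270301), Dlg3 on chromosome X (70596533 to 70648532) and Dlg4 on chromosome 10 (56624584 to 56655543). Dlgap1 lay on chromosome 9 (118276789 to 119159807). Shank1 (100297132 to 100345227) and Shank2 (217173199 to 217593950) lay on chromosome 1, and Shank3 on chromosome 7 (130474268 to 130534679). Camk2a lay on chromosome 18 (56193978 to 56298957) and Camk2b on chromosome 14 (86208876 to 86298068, minus strand). All but Dlg1 and Camk2b were on the plus strand.

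No difference between groups passed the test for any of the 8 tested genes, while the genes varied together from rat to rat within the groups. Dlg4, Camk2a, Camk2b, Dlg1 and Dlg2 were high in the same rats, and Dlgap1 and Shank1 tended to be low in those rats. To show the start regions of such genes, 3 promoter windows of RefSeq (build GRCr8) are printed, from 250 bases before to 50 bases after the annotated start, for Camk2b and Dlg4, which varied together, and for Dlgap1, which varied against them. They were chosen after the values were seen, and for Dlgap1 the upstream of its entries was taken. Capitals mark the CpG dinucleotides. Camk2b is at chr14:85147895-85148194 (minus strand), Dlg4 at chr10:55239534-55239833 (plus strand) and Dlgap1 at chr9:117613834-117614133 (plus strand).
Camk2b: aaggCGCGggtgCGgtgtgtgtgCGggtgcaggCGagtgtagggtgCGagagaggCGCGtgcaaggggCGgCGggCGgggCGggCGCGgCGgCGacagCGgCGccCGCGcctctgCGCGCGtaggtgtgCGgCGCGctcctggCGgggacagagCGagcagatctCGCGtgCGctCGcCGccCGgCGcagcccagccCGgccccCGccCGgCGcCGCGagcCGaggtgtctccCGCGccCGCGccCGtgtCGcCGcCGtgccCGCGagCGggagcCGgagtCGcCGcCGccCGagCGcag
Dlg4: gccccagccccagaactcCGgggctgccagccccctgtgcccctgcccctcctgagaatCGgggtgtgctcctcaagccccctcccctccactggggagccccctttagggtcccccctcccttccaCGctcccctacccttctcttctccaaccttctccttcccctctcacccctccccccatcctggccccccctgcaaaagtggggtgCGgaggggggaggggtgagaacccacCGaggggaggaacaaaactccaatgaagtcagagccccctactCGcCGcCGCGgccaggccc
Dlgap1: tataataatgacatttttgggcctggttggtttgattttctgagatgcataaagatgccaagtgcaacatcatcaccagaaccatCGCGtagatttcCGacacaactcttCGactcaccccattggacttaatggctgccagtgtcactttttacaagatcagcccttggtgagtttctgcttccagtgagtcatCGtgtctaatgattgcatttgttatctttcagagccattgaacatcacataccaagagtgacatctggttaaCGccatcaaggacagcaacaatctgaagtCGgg

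7 of the 10 genes matched a promoter entry (Dlg1, Dlg2, Dlg4, Dlgap1, Shank3, Camk2a and Camk2b). Among these 7, the window of Camk2b had 59 CpG dinucleotides, that of Dlg4 had 9 and that of Dlgap1 had 7, against a median of 7 over 33469 promoters of the same length. The genes that varied together did not share this feature, since Dlg2 had 3 and Shank3 had 4. The GC content ran from 42.3% in Dlg2 to 81.3% in Camk2b, with a median of 51.7% over all promoters. The letters GGGCGG (GC box), read on both strands, were found in 2 of the 7 windows, Dlg1 and Camk2b, against 33.1% of all promoters. The letters TGACG, part of the cyclic AMP response element, were found in 1, Camk2a, against 21.2% of all promoters. The full element TGACGTCA, which contains TGACG, was in 0 of 7 against 1.83%, and TATAAA in 0 of 7 against 14.2%. A match is a description of the letters and not of a bound site.

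The membrane-associated scaffolds come first. Dlg2 had a log2 signal between 16.15 and 16.49 in the CT rats (median 16.25), between 16.04 and 16.41 in SR (median 16.31) and between 16.11 and 16.55 in SS (median 16.47). The YSR rats had 16.33, 16.33 and 16.57, and the YSS rats 16.18, 16.58 and 16.62. The mean was 16.28 ± 0.14 (SD, n = 6) in CT and 16.46 ± 0.25 (SD, n = 3) in YSS, the highest group. All groups overlapped.

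Dlg4, which encodes the most studied of these scaffolds, had values between 10.77 and 11.35 in CT (median 10.91), between 10.90 and 11.55 in SR (median 11.17) and between 10.95 and 11.28 in SS (median 11.09). The YSR rats had 11.04, 11.18 and 11.31, and the YSS rats 10.97, 11.02 and 11.50. Its group means ran from 11.01 ± 0.24 (SD, n = 6) in CT to 11.17 ± 0.14 (SD, n = 3) in YSR, a range smaller than the SD within CT. Dlg1 group means ran from 12.80 in YSR to 12.95 in YSS and those of Dlg3 from 10.92 in CT to 11.09 in YSR. No group of Dlg1 or Dlg3 stood clear of the others.

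Dlgap1 had values between 11.70 and 12.23 in CT (median 12.02), between 11.78 and 12.07 in SR (median 11.90) and between 11.51 and 12.22 in SS (median 11.81). The YSR rats had 11.87, 12.14 and 12.36, and the YSS rats 11.75, 11.89 and 12.23. The lowest single value of Dlgap1 was in an SS rat and the highest in a YSR rat, and the groups overlapped.

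Among the Shank genes, Shank1 had values between 11.82 and 12.35 in CT (median 11.96), between 11.83 and 12.13 in SR (median 11.96) and between 11.70 and 12.26 in SS (median 11.92). The YSR rats had 11.97, 12.24 and 12.46, and the YSS rats 11.99, 12.15 and 12.16. 2 of the 3 YSR values of Shank1 lay above every SR value and the other lay among them. Shank2 stayed between 6.88 and 7.21 on all arrays and Shank3 between 8.82 and 10.001, both near background.

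Camk2a had values between 15.87 and 16.37 in CT (median 16.18), between 15.91 and 16.53 in SR (median 16.29) and between 15.997 and 16.42 in SS (median 16.16). The YSR rats had 16.26, 16.32 and 16.43, and the YSS rats 16.12, 16.16 and 16.53. Camk2b had values between 15.23 and 15.84 in CT (median 15.52), between 15.43 and 16.15 in SR (median 15.76) and between 15.27 and 15.99 in SS (median 15.78). The YSR rats had 15.64, 15.89 and 15.92 for Camk2b, and the YSS rats 15.37, 15.49 and 16.14. For both kinase subunits the CT mean was the lowest and the YSR mean the highest, and every group overlapped with CT.

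**Figure D1:**
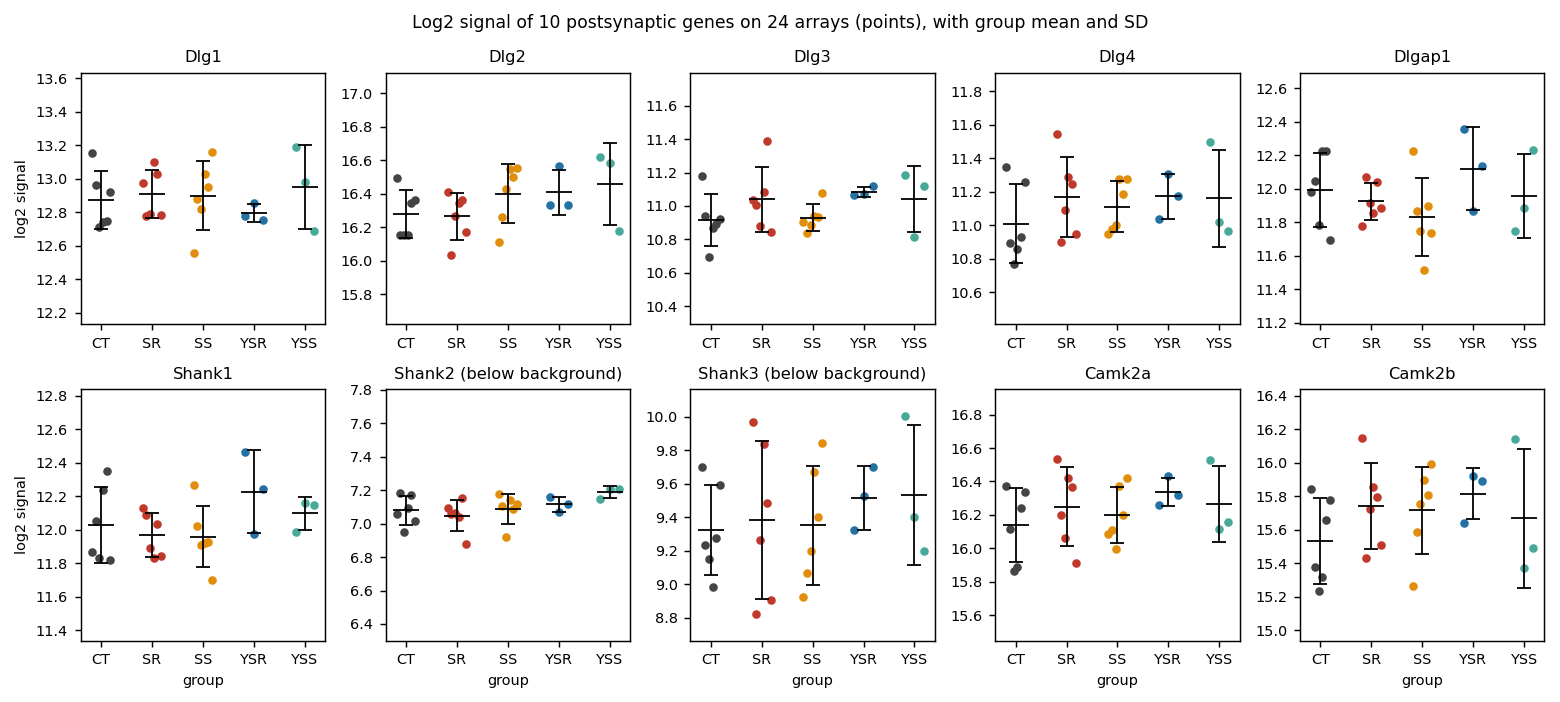
Log2 signal (vertical axis, 1.5 log2 units in every panel) of each gene on each of the 24 arrays, by group (horizontal axis), with points for rats and bars for the group mean and SD. In every panel the groups overlap, and Shank2 and Shank3 lie near background.

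The study's question was whether rats that take methamphetamine despite punishment differ from controls and from rats that stop, and whether shocks alone have an effect. limma with Benjamini-Hochberg adjustment over the 9044 tested clusters was used for 8 comparisons and for a joint test of any difference among the 5 groups (F test). A gene was called at an adjusted p under 0.05. Of the 8 tested genes, 0 were called in each of the 8 comparisons and in the F test, and 0 had an unadjusted p under 0.05. No comparison separated the groups of any of the 8 genes without overlap.

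The background to these counts differed by comparison. In SRvsCT 1.99% of the tested clusters were called and 21.3% had an unadjusted p under 0.05. In SSvsCT, SRvsSS, YSRvsCT, YSSvsCT, YSRvsYSS, SRvsYSR and SSvsYSS 0% were called. At an unadjusted p under 0.05 stood 6.93% in SSvsCT, 12.5% in SRvsSS, 3% in YSRvsCT, 2.82% in YSSvsCT, 0.962% in YSRvsYSS, 6.32% in SRvsYSR and 5.46% in SSvsYSS. In the F test 0.0111% were called and 10.8% had an unadjusted p under 0.05. A missed threshold does not show that the levels were alike.

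The intervals give the sizes that the data allow. In SRvsCT the differences of the 8 genes ran from -0.07 for Dlgap1 to 0.21 for Camk2b on the log2 scale, with a median of 0.07 beside 0.03 over all tested clusters. 5 of the 8 were above 0, as were 57.0% of all tested clusters. Camk2b was 1.16-fold of CT in SR, with a 95% interval from 0.931 to 1.43 and an adjusted p of 0.455 (limma). Without SR replicate 1 its log2 difference was 0.13. Across the 8 genes the SRvsCT intervals reached from 0.804-fold to 1.43-fold. Marker means of oligodendrocytes and of the hypothalamus were higher in SR than in CT. The mean of 5 oligodendrocyte markers was 12.30 ± 0.18 (SD, n = 6) in CT and 12.65 ± 0.27 (SD, n = 6) in SR, with ranges of 11.98 to 12.48 and 12.30 to 13.08. The mean of 4 hypothalamic markers was 5.38 ± 0.44 (SD, n = 6) in CT and 6.21 ± 0.55 (SD, n = 6) in SR, with ranges of 4.93 to 6.03 and 5.62 to 7.11, and 3 of the 4 were above the background percentile on no array while Oxt was above it on 2. Oxt is also the gene that the study reported as raised in SR. Its SD within groups was 1.38, against 0.21 to 0.41 for the other hypothalamic markers, and its share of the higher mean was not tested. The part of both marker means in the SRvsCT values was not tested beyond the fits with each marker mean as a covariate, which called 0 of the 8 genes. With the oligodendrocyte or the hypothalamic mean, 0 of all 9044 tested clusters were called in SRvsCT, so this count is no result about the genes. At an unadjusted p under 0.05 in limma, 5 of the 8 passed in the hypothalamic fit, beside 1864 of the 9044 clusters.

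In SSvsCT the differences ran from -0.16 for Dlgap1 to 0.18 for Camk2b, with intervals across the genes from 0.754-fold to 1.41-fold. The oligodendrocyte marker mean was also higher in SS than in CT, at 12.62 ± 0.24 (SD, n = 6) with a range of 12.32 to 12.90. By contrast, the mean of 9 cortical markers was lower in SS, at 7.38 ± 0.23 (SD, n = 6) with a range of 7.14 to 7.63. In CT it was 7.94 ± 0.48 (SD, n = 6) with a range of 7.40 to 8.73, and 6 of the 9 were above the background percentile on no array. Slc17a7, 1 of these 9, is also a gene that the study listed as lower in SS than in CT. Its SD within groups was 1.58, against 0.15 to 0.92 for the other cortical markers. The share of Slc17a7 in the lower mean was not tested. The direct comparison of resistant with sensitive rats, SRvsSS, ran from -0.13 for Dlg2 to 0.11 for Dlg3, with intervals from 0.792-fold to 1.26-fold. These 3 comparisons share rats. 7 of the 8 genes were above 0 in SRvsSS while 42.7% of all tested clusters were, a description without a test since the genes vary together.

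In YSRvsCT the differences ran from -0.08 for Dlg1 to 0.28 for Camk2b, the largest of the 64 differences. Camk2b was 1.22-fold of CT, with an interval from 0.933 to 1.58 and an adjusted p of 0.999 (limma). In YSSvsCT they ran from -0.04 for Dlgap1 to 0.18 for Dlg2, and in YSRvsYSS from -0.16 for Dlg1 to 0.16 for Dlgap1. With 3 yoked rats a group, the YSRvsYSS intervals reached from 0.728-fold to 1.5-fold.

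Methamphetamine takers were set against the rats that had matching shocks without drug. In SRvsYSR the differences ran from -0.26 for Shank1 to 0.11 for Dlg1, with 7 of 8 below 0 and a median of -0.08 beside -0.05 over all clusters. Shank1 had the smallest p of the 64 differences. It was 0.836-fold of YSR in SR, with an interval from 0.693 to 1.01, an unadjusted p of 0.0616 and an adjusted p of 0.699 in the limma fit. The log2 difference of Shank1 was -0.14 without YSR replicate 1 and -0.39 without YSR replicate 2, where the adjusted p was 0.967. In SSvsYSS the differences ran from -0.14 for Shank1 to 0.05 for Camk2b, with 7 of 8 below 0 and a median of -0.06, while 62.0% of all tested clusters were above 0 and their median was 0.05. The oligodendrocyte marker mean was 12.10 ± 0.20 (SD, n = 3) in YSS, with a range of 11.88 to 12.25 that lay below every SS array. For the cortical marker mean YSS had 8.04 ± 0.52 (SD, n = 3), with a range of 7.52 to 8.56. The part of both means in the SSvsCT and SSvsYSS values was tested only through the covariate fits. The difference between both takers' effects, SR minus YSR less SS minus YSS, had adjusted p-values from 0.876 to 0.983 over the 8 genes. Shank2 and Shank3, fitted over all clusters, had no unadjusted p under 0.05 in any comparison.

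**Figure D2:**
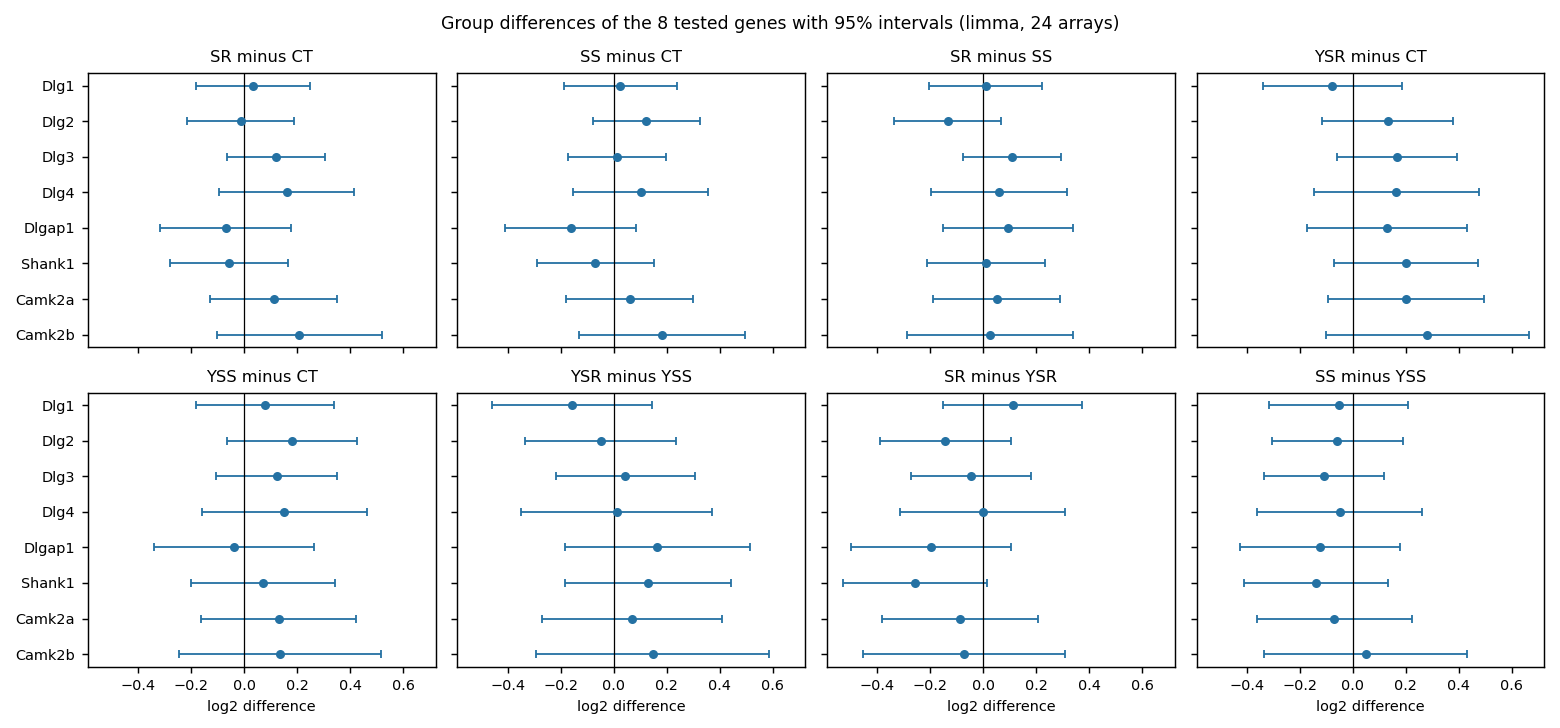
Log2 difference between groups (horizontal axis) of the 8 tested genes (vertical axis) in 8 comparisons, with points for the limma estimate and bars for the 95% interval. Every interval includes 0, and the estimates run from -0.26 to 0.28.

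A further list held 51 other genes of the postsynaptic density, of which 49 distinct clusters were found and 39 were tested. In SRvsCT 0 of the 39 were called, 5 had an unadjusted p under 0.05, all higher in SR, and the median difference was 0.08 beside 0.03 over all clusters. The background at the unadjusted level there was 21.3%. Cttn, which encodes the actin regulator cortactin, had 9.82 ± 0.14 (SD, n = 6) in SR and 9.64 ± 0.09 (SD, n = 6) in CT, a log2 difference of 0.18 with a limma adjusted p of 0.137. On every CT array Cttn was below the 95th percentile of the negative controls (highest value 9.78, lowest CT percentile 9.82). Its values are therefore read as signals near background. Nlgn3, which encodes the adhesion protein neuroligin 3, had 12.42 ± 0.17 (SD, n = 6) in SR and 12.19 ± 0.21 (SD, n = 6) in CT, with a limma adjusted p of 0.203. Neither passed the adjusted threshold.

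In SSvsCT 0 of the 39 were called. There 3 of the 39 had an unadjusted p under 0.05, all higher in SS, a count near the 6.93% of all tested clusters. The 3 were Dbn1, which encodes the spine actin-binding protein drebrin, Iqsec1 and Cttn. Dbn1 differed by 0.22 on the log2 scale, with a limma adjusted p of 0.458. Dbn1 and Cttn were below the 95th percentile of the negative controls on every CT array, with a highest CT value of 9.72 for Dbn1. Cttn was also below it on every SS array (highest value 9.92, lowest SS percentile 10.02). At the unadjusted level there was 1 cluster of the 39 in SRvsSS (background 12.5%), 1 in YSRvsCT (3%), 1 in YSSvsCT (2.82%) and 2 in SSvsYSS (5.46%). There were 0 in YSRvsYSS (0.962%) and SRvsYSR (6.32%), and 0 were called in any of these comparisons by limma. Lin7a, which encodes a small PDZ scaffold, had the largest of these differences in size. It was 9.996 ± 0.11 (SD, n = 6) in SS and 10.41 ± 0.17 (SD, n = 3) in YSS, a log2 difference of -0.42 with a limma adjusted p of 0.662. Its SS values, 9.88 to 10.19, lay near the negative control percentile, which ran from 10.02 to 10.32 on the SS arrays. The YSS values, from 10.30 up, were above it.

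The 10 genes were then compared with each other across rats, after the mean of each group was subtracted so that group differences played no part. All 45 pairs were computed, as a description, over 24 arrays that share the array type and its normalisation. Dlg4 and Camk2b had a Pearson r of 0.92 (Spearman rho 0.96), Dlg4 and Camk2a 0.89 (rho 0.87), and Camk2a and Camk2b 0.84 (rho 0.87). Dlg1 and Dlg2 had an r of 0.81 (rho 0.81). Shank3 followed this set, with an r of 0.92 with Dlg4 (rho 0.94), although its signal was near background. Over the 15 pairs among Dlg1, Dlg2, Dlg4, Shank3, Camk2a and Camk2b, r ran from 0.67 to 0.92, a set put together after the values were seen. Without the 2 arrays farthest from the median, r of these pairs ran from 0.67 to 0.91, and over the 18 arrays of CT, SR and SS from 0.72 to 0.95.

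Dlgap1 and Shank1 varied together and against that set. Their r with each other was 0.76 (rho 0.74). All 12 pairs that crossed between them and the set of 6 were below 0, from -0.64 for Dlg2 with Dlgap1 to -0.20 for Camk2a with Shank1. Within the SR group alone this did not hold for Shank1, whose r with Dlg4 was 0.34 and with Camk2a 0.54 (n = 6), while in SS they were -0.75 and -0.61 (n = 6). Dlg3 was between, with r from 0.35 to 0.69 with the set of 6, and Shank2 had its highest r, 0.59, with Shank1. For Dlg4, 4.43% of the other 9043 tested clusters had an r over 0.8, for Camk2b 4.64% and for Dlgap1 0.144%.

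**Figure D3:**
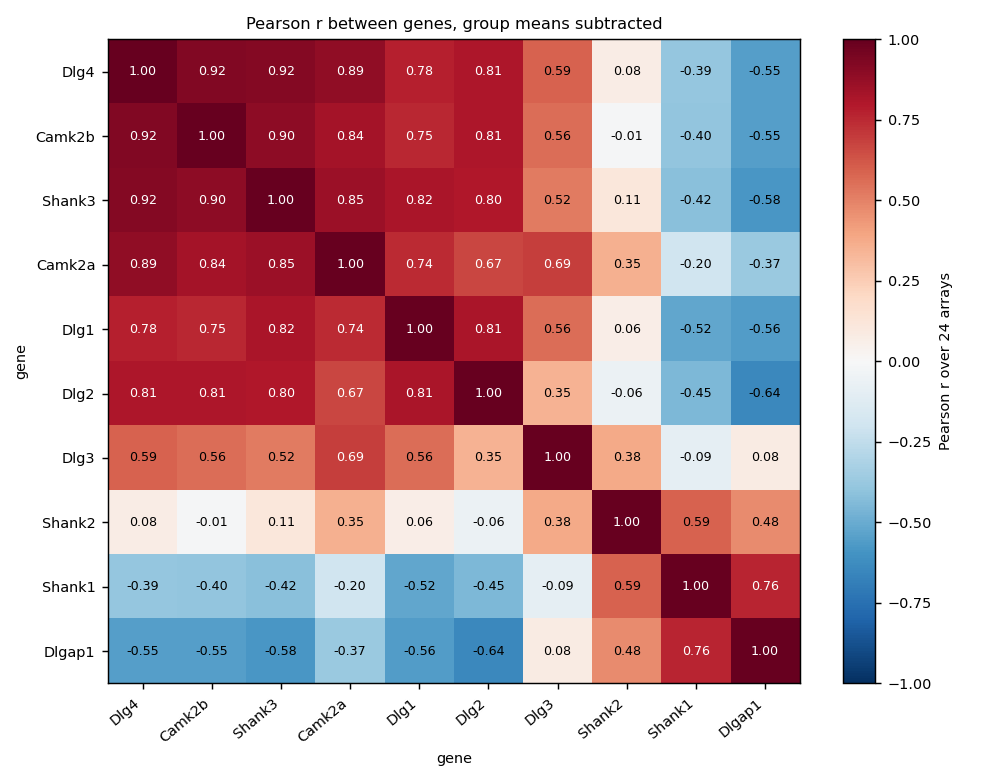
Pearson r over 24 arrays between each pair of genes (both axes) after each group's mean was subtracted, with red for positive and blue for negative values. Dlg4, Camk2b, Shank3, Camk2a, Dlg1 and Dlg2 form a block from 0.67 to 0.92, and Dlgap1 and Shank1 are negative against it.

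The genes of most like pattern were listed, among 3374 other genes, for 1 gene of each family, Dlg2, Dlgap1, Shank1 and Camk2a. The highest mean signal decided which gene stood for its family, and it is not read as a higher level. Agap2 was among the 3 genes closest to Camk2a (r = 0.92). Dlg2 was closest to Clock (r = 0.91), Arpp19 (r = 0.91) and Ssbp2 (r = 0.90). Dlgap1 was closest to Olfm1 (r = 0.92), Gabbr2, a GABA-B receptor subunit (r = 0.90), and Ptprg (r = 0.87). Shank1 was closest to Hook3 (r = 0.77), Olfm1 (r = 0.76) and Chga (r = 0.72). Olfm1 was on the lists of both Dlgap1 and Shank1.

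Since the group comparisons called nothing, the variation within groups was set against cell type markers, a step added after the data were seen. Correlations of the genes with each other, with the main axis of variation, with 5 measures of array quality and with the means of 8 marker lists were looked at, and 2 lists stood out and were fitted. The same limma fit, group plus marker mean, was then run for all 8 lists, and all 8 are given here. The mean of 9 medium spiny neuron markers (among them the dopamine receptor genes Drd1 and Drd2 and the peptide precursor genes Penk and Tac1) ran from 1.14 below its group mean to 0.78 above it across the rats, and its group means were close, from 13.01 ± 0.47 (SD, n = 6) in CT to 13.16 ± 0.62 (SD, n = 3) in YSS.

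In this fit 7 of the 8 tested genes passed the adjusted threshold in their relation to that mean, 5 upward and 2 downward. The p-values come from the same arrays as the correlations that led to the fit, and are no independent evidence of the relation. Of the 9035 other tested clusters, 11% were called upward and 3.73% downward. Camk2b rose by 0.47 ± 0.05 (SE) on the log2 scale for each doubling of the marker signal (r = 0.92, n = 24, limma adjusted p = 5.15e-07). Dlg4 rose by 0.36 ± 0.05 (SE, limma adjusted p = 7.98e-06), Dlg1 by 0.29 ± 0.05 (SE, 8.31e-05), Dlg2 by 0.26 ± 0.05 (SE, 0.000227) and Camk2a by 0.30 ± 0.06 (SE, 0.000702). Dlgap1 fell by 0.28 ± 0.07 (SE, limma adjusted p = 0.00368) and Shank1 by 0.21 ± 0.07 (SE, 0.0291). Dlg3 had a slope of 0.14 ± 0.06 (SE) and an adjusted p of 0.130.

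The relation did not rest on a single marker. The r of Camk2b with each of the 9 markers ran from 0.85 to 0.94, that of Dlg4 from 0.80 to 0.94 and that of Dlgap1 from -0.75 to -0.59. Nor did it rest on the 2 arrays farthest in the marker mean, without which r was 0.91 for Camk2b, 0.96 for Dlg4, -0.66 for Dlgap1 and -0.46 for Shank1. The call of Shank1 was the least steady. It was lost when CT replicate 1, 4 or 6, SS replicate 1 or 6 or YSR replicate 1 was left out, with an adjusted p up to 0.143, and in the fit over all clusters, where it was 0.0752. With the arrays of CT, SR and SS alone it was 0.116. Measures of the arrays also moved with the marker mean, with an r of 0.30 for the median of the tested clusters, -0.38 for the median of all clusters, -0.32 for the 95th percentile of the negative controls and 0.30 for bioB. The genes themselves moved more with some of these measures. Dlg2 had an r of 0.62 with the median of the tested clusters and -0.62 with that of all clusters, and the latter was -0.55 for Camk2b and -0.54 for Dlg4. With the medians of the tested clusters made equal, limma called the same genes, with slopes of 0.45 for Camk2b, 0.23 for Dlg2 and -0.26 for Shank1. The part of the other array measures in the relation was not tested.

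**Figure D4:**
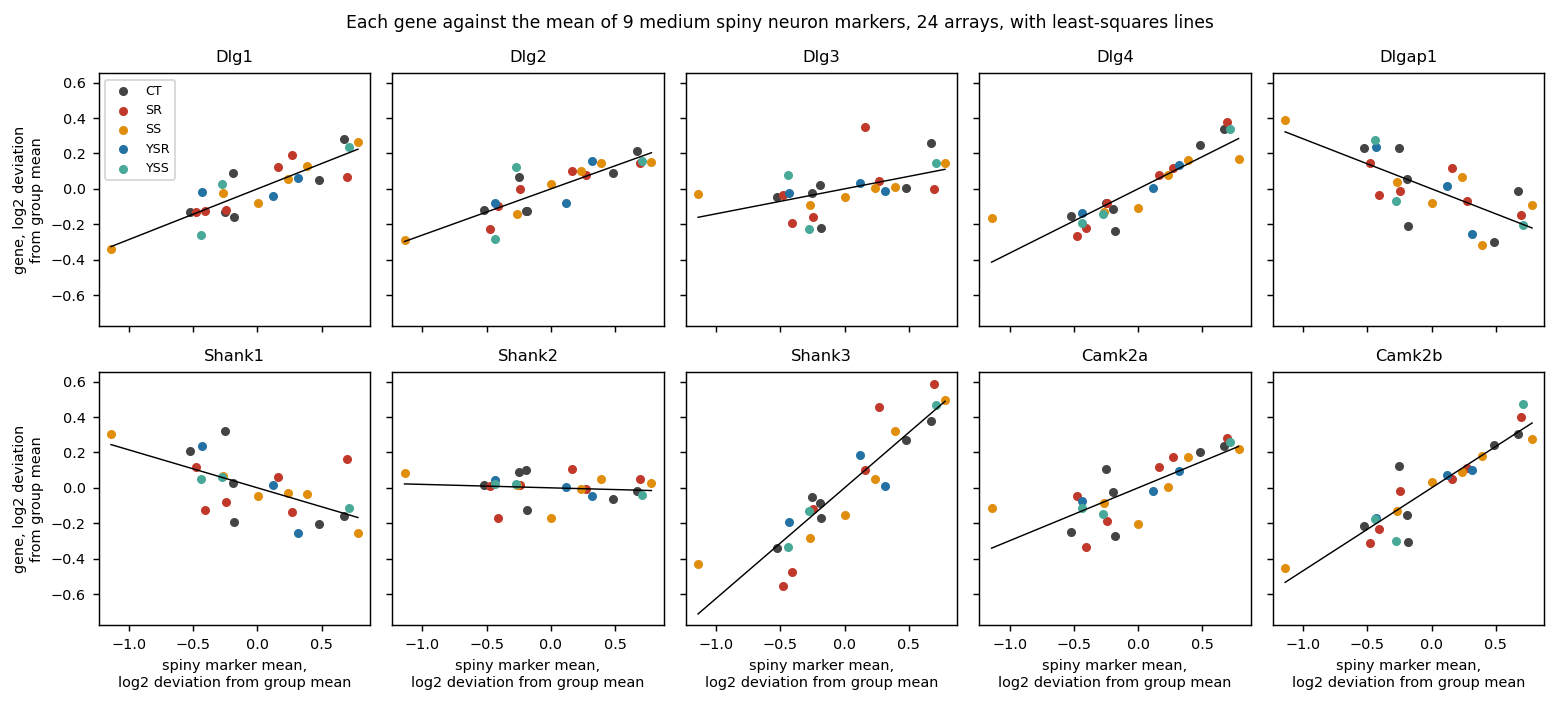
Deviation of each gene from its group mean (vertical axis, log2) against that of the mean of 9 medium spiny neuron markers (horizontal axis, log2) on 24 arrays, coloured by group, with least-squares lines. Dlg4, Camk2a, Camk2b, Dlg1, Dlg2 and Shank3 slope upward and Dlgap1 and Shank1 downward.

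The other 7 lists called 0 of the 8 genes. In the background, the astrocyte mean called 5.91% upward and 2.29% downward, the oligodendrocyte mean 1.74% upward and 0.0996% downward, the choroid plexus mean 0.0221% upward and 0% downward, and the cortical, microglial, endothelial and hypothalamic means 0% in both directions. Several single values came near. Dlg3 had a slope of 0.23 ± 0.06 (SE) against the cortical mean, with an unadjusted p of 0.00041 and an adjusted p of 0.0683 (limma). Camk2a had -0.34 ± 0.08 (SE) against the hypothalamic mean, with an adjusted p of 0.139. Dlgap1 had 0.66 ± 0.24 (SE) against the astrocyte mean, with an adjusted p of 0.0801. The endothelial, choroid plexus and hypothalamic lists had no marker that passed the filter, which rests on the CT arrays, so those means are mostly background signal. The choroid plexus mean was an exception in SS, where it ran from 5.02 to 10.44, and its marker Ttr was above the background percentile on 1 array. Dlg1 had an r of -0.46 with that mean, and of -0.07 without the 2 arrays farthest in it.

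**Figure D5:**
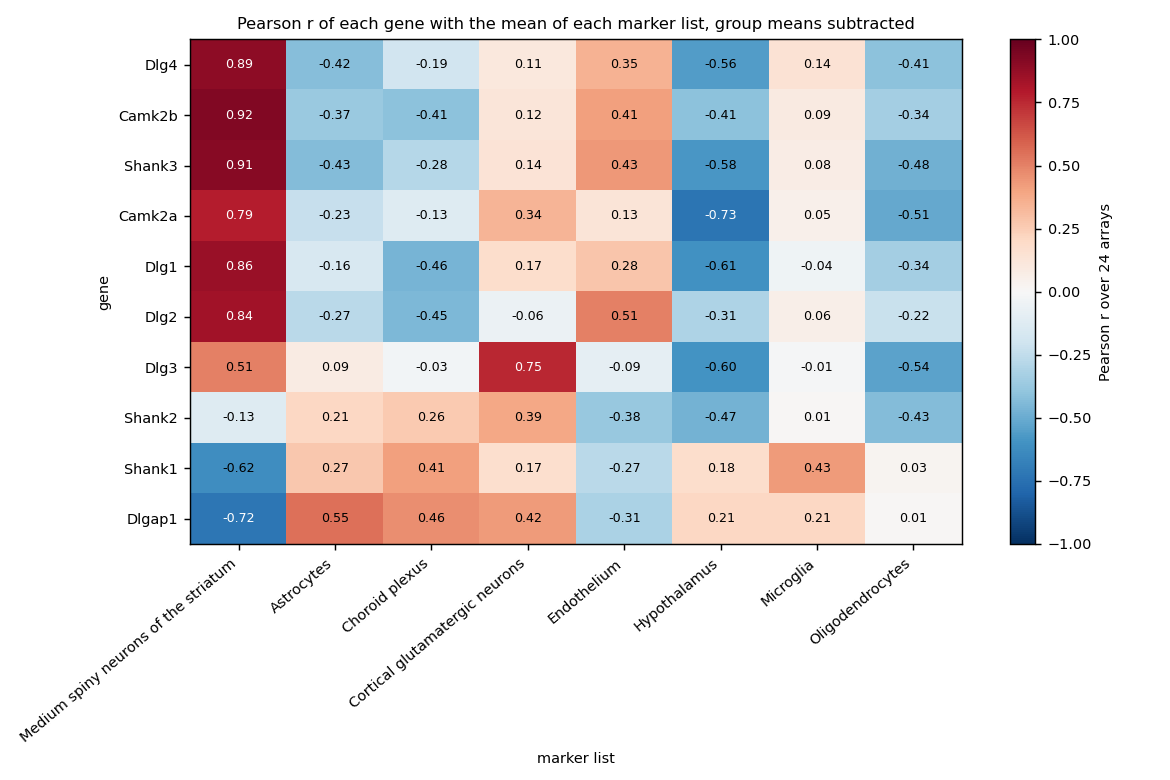
Pearson r over 24 arrays of each gene (vertical axis) with the mean of each of 8 marker lists (horizontal axis), group means subtracted, with red for positive and blue for negative values. The medium spiny neuron column runs from -0.72 for Dlgap1 to 0.92 for Camk2b, and no other column is as strong for most genes.

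The 39 tested clusters of other postsynaptic density genes were set against the same means. The medium spiny neuron mean called 28 of them, 24 upward (background 11%) and 4 downward (3.73%). Among those upward with the smallest p were Actn2, an actin crosslinker of spines, with a slope of 1.05 ± 0.06 (SE), Ppp3ca, a calcineurin catalytic subunit, with 0.61 ± 0.04 (SE), and Baiap2 with 0.76 ± 0.05 (SE). The 4 downward were Camk2d, Camk2g, Dnm3 and Ina, named after their values were seen. The CaMKII family thus split, with Camk2a and Camk2b upward and the delta subunit Camk2d (slope -0.62 ± 0.08, SE) and gamma subunit Camk2g (-0.54 ± 0.08, SE) downward. The adjusted p was 9.36e-06 for Camk2d and 1.84e-05 for Camk2g (limma). The astrocyte mean called 4 of the 39, 1 upward (background 5.91%) and 3 downward (2.29%), and this small count is not read as a result about these genes. Camk2d, downward against the medium spiny neuron mean, was upward against the astrocyte mean. Its slope there was 1.29 ± 0.40 (SE), with an adjusted p of 0.0486 (limma), and Abi1, Lrrc7 and Ppp1r9a were downward. The other 6 lists called 0.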

How the data were processed

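RNA of the nucleus accumbens from 24 rats was hybridised by the authors to Affymetrix Rat Transcriptome Arrays. The deposited values are log2 signals per transcript cluster, made with Affymetrix Expression Console per the labels. The sources used here do not state the background correction, normalisation, summarisation or genome build. The deposited group averages and the columns of the authors' own comparisons (fold changes, p-values) gave no result here. Groups came from the sample titles. Each rat was 1 array, and the number of arrays limits the precision.

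Clusters with a CT mean above that of bioB were tested (9044 of 68842, 13.1%), after the study's methods. Differences were fitted with limma 3.58.1 (R 4.3.3) on 5 groups and 24 arrays, with Benjamini-Hochberg adjustment over all tested clusters, and checked on simulated data. The simulated clusters varied independently of each other, so that check does not cover clusters that vary together. Tables were made with Python 3.11.15 and pandas 2.3.3. All 10 genes are given by level. Single differences were to be named at an unadjusted p under 0.05, and since none reached it, the extreme ones are named instead, chosen after their values were seen. The genes and lists were chosen with earlier results of these data known. The relations to marker means, and fits with each marker mean as a covariate, were added after the data were seen, following correlations with 8 marker lists, 5 array measures and the first principal component. The lists covered medium spiny and cortical glutamatergic neurons, astrocytes, oligodendrocytes, microglia, endothelium, choroid plexus and hypothalamus. Some genes that the rules would name are not reported here.

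Alternatives were a replicate block, no filter, a filter on all arrays, fits of the compared groups alone with and without moderation, trend and robust moderation, array weights, equal array medians, quantile normalisation, 1 cluster per gene, and each array left out.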

Additional observations from a re-analysis of the deposited data

Results flagged for a closer look

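1 value stood far from its group. Shank2 on the array of SS replicate 3 had a log2 signal of 6.92, below the next lowest SS value of 7.08, while the highest SS value was 7.17. The gap was 0.652 of the group's range. 30 groups of 6 arrays were looked at, over the 10 genes in CT, SR and SS, and chance alone flags about 1 in 20 such groups. Shank2 was below the 95th percentile of the negative controls on every array.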

How the results depend on the processing

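In each of the 8 comparisons and in the F test, 0 genes were called under every alternative to the fit, with each of the 24 arrays left out (0 to 0) and with each of the 8 marker means as a covariate. At the unadjusted level, up to 2 genes passed with array weights (Dlgap1 and Shank1), up to 1 with a single array left out, and up to 5 with a marker mean as a covariate (the hypothalamic one, in SRvsCT). In that SRvsCT fit 1864 of all 9044 tested clusters passed. With array weights, from 266 of the 9044 in YSSvsCT to 2686 in SRvsCT passed over the 8 comparisons. Same-numbered rats did not deviate together (median r -0.02 over 39 pairs, and -0.02 over 186 other pairs), and between yoked groups (SR with YSR, SS with YSS) the 6 same-numbered pairs had r from -0.46 to 0.06. The numbers were therefore not used as pairs, and the replicate block called 0 genes in every comparison. The sample titles do not name the partner of a yoked rat, so the true yoking was not part of the SRvsYSR and SSvsYSS fits. No second cluster could be tried, as each gene had 1. Over all tested clusters the 180 SRvsCT calls became 75 with the replicate block, 0 with those groups alone, 4 with those groups alone and no moderation, 1250 with array weights, 63 with equal array medians, 373 with 1 cluster per gene and 0 to 1196 with an array left out. With a marker mean as a covariate the SRvsCT calls ran from 0, for the oligodendrocyte and the hypothalamic mean, to 548 for the medium spiny neuron mean. The cause was not tested, and not every fit of array weights converged.

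The 7 genes related to the medium spiny neuron mean stayed between 6 and 7 with an array left out, and Dlg3 joined them with array weights (adjusted p = 0.0403). For the cortical mean, 1 gene (Dlg3) was called with array weights, equal array medians or quantile normalisation, and 0 to 1 with an array left out. For the astrocyte mean, 4 were called with array weights, 1 with equal array medians, quantile normalisation or 1 cluster per gene, and 0 to 1 with an array left out. For the oligodendrocyte mean, 2 were called with array weights. For the hypothalamic mean, 3 were called with array weights, 1 with 1 cluster per gene and 0 to 1 with an array left out. No share over all tested clusters is set beside the counts under these alternatives, and they are not read as a result about the genes.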
